A study of Mus musculus with 12 samples.

Results

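The HIF pathway and hypoxia-inducible genes described here are 32 genes chosen by symbol: the subunits of the hypoxia-inducible factor, the enzymes that sense oxygen and mark the factor for degradation, and targets of the factor outside glycolysis, the carbonic anhydrases and the angiogenic factors. All 32 symbols had an entry among the 42329 of the expression table, and 29 of them reached 1 FPKM (fragments normalised for gene length and for the fragments of the library) in at least 3 of the 12 libraries and were tested. MC38 cells are a mouse line that source labels describe as colon adenocarcinoma cells. The study compared cells carrying a control guide RNA (sgControl) with cells whose guide (sgHcar1) targets Hcar1, a lactate receptor gene, after PBS or after 20 mM lactate for 24 hours. Each of the 4 groups had 3 libraries, and nothing in the labels says whether a guide population was 1 clone or several, whether the libraries of a group were separate cultures, or how oxygen was set. The p-values therefore measure the spread between these libraries, which may be technical.

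The hypoxia-inducible factor is a dimer of an oxygen-regulated alpha subunit, made from Hif1a, Epas1 or Hif3a, and the stable partner made from Arnt. In oxygen, prolyl hydroxylases of the Egln family hydroxylate the alpha subunit, the von Hippel-Lindau protein then binds it for degradation, and the asparaginyl hydroxylase made from Hif1an blocks its coactivator contact. When oxygen is short the alpha subunit persists, enters the nucleus and binds short sites with the core ACGTG or GCGTG in promoters and enhancers of its targets. Egln1 and Egln3 are themselves targets, so their RNA is widely used as a readout of the pathway, while regulation of the alpha subunit itself is mainly at the protein level, which RNA does not show.

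Promoter sequences were available for 22 of the 32 genes in the RefSeq table of build GRCm38.p6, and the 250 bases upstream of each start were searched on both strands for ACGTG and GCGTG, with the palindrome CACGTG counting once on each strand. At least 1 such core was present in 20 of the 22 genes (90.9%) and ACGTG in 14 (63.6%), beside 41.5% and 18.5% of the 27025 genes of the table. The promoters of these genes also had more G and C, with a median of 62.8% beside 52.4% over all promoters, and the cores themselves are rich in both. A match is a description of the letters, not of binding. The 5 stretches shown are those of Bnip3, Ankrd37, Egln3 and Fam162a, which are among the members that fell most with lactate, and of Hif1a, which rose, each 5′ to 3′ along its gene, in lower case with matched cores in capitals (a core on the opposite strand reads CACGT or CACGC). The stretches of Bnip3, Ankrd37 and Fam162a are shortened to bases outside annotated exons, and those of Ankrd37 and Hif1a lie upstream of 1 start and inside a longer RefSeq gene model of the same gene.
Bnip3, chr7:138909520-138909756, minus strand: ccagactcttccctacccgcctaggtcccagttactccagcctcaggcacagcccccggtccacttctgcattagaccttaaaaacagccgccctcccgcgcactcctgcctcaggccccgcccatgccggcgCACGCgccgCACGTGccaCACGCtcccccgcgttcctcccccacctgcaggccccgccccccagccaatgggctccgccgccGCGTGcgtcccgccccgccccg
Ankrd37, chr8:45999868-46000100, minus strand: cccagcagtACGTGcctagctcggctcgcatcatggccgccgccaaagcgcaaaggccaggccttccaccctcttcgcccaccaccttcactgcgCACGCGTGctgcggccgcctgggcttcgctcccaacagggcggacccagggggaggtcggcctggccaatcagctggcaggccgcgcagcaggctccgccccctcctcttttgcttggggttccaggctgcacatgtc
Egln3, chr12:54203875-54204124, minus strand: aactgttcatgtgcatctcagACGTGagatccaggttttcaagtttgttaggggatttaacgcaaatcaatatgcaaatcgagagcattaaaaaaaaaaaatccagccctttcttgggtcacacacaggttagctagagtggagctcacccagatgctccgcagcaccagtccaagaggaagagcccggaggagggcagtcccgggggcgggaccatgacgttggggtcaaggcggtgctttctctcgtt
Fam162a, chr16:36071595-36071684, minus strand: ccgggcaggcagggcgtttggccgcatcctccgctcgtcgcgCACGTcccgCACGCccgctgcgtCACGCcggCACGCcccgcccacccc
Hif1a, chr12:73907617-73907866, plus strand: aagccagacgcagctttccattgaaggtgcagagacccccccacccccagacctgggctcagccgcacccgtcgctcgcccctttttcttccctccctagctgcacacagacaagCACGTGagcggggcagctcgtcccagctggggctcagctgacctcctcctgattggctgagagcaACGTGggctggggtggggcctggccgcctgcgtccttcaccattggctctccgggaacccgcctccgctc

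In the stretches shown, Bnip3 had 5 matches in 237 bases and Fam162a had 4 in 90 bases, 3 of the 4 of the GCGTG form. Ankrd37 had 3 matches in 233 bases and Hif1a had 3 in 250 bases, all of the ACGTG form in Hif1a. Egln3, the member with the lowest log2(FPKM + 1) change in sgControl cells, had 1 in 250 bases. Over the full 250 bases searched, Ankrd37 had 4 matches and Fam162a had 6.

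Libraries of a group resembled each other closely, with a correlation across genes of at least 0.990 within every group. Depth in reads is unknown because the table holds FPKM alone. Relative depth estimated from the steps between low values was 0.746 to 1 of the deepest library, with group means of 0.955 and 0.943 for sgControl in PBS and lactate and 0.891 and 0.775 for sgHcar1. The summed FPKM of a library ran from 310109 to 421984 and was highest in sgHcar1 cells in lactate. Hcar1 itself was listed at 0 in 11 of the 12 libraries and at 0.0196 FPKM in the other, so its level does not check the guide. Beside the label of colon adenocarcinoma, Epcam and Cdx2 were at 0 in every library and 3 of 8 epithelial markers reached 1 FPKM in any library, with summed levels of 3.07 to 3.29 FPKM in sgControl cells in PBS, 4.85 to 5.16 in lactate, and then 44.9 to 48.5 (PBS) and 110.4 to 114 (lactate) in sgHcar1 cells. The higher sum in sgHcar1 cells was that of Krt18, whose mean in PBS was 46.2 FPKM there and 0.0274 FPKM in sgControl cells. Krt19 and Cdh1 were at 0 in sgHcar1 cells and at 1.31 and 1.72 FPKM in sgControl cells in PBS. Fibroblast markers summed to 274 to 284, 238 to 252, 185 to 195 and 81.5 to 86.4 FPKM in the same order, with 7 of 9 reaching 1 FPKM and Lum and Thy1 at 0. In PBS Col1a1 (1.01 and 23.1 FPKM) and Col1a2 (45.5 and 114.6 FPKM) were higher in sgHcar1 than in sgControl cells, against the sum. Of the leukocyte and endothelial markers, 1 of 7 and 1 of 6 reached 1 FPKM, of the red cell markers 0 of 2, and Itgam, Cd3e and Adgre1 were at 0. The marker sums differ between the same groups as the genes below, and their part in those differences was not tested.

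Most of the genes were lower with lactate than with PBS under either guide. Of the 29 tested, 22 fell and 4 rose in sgControl cells at an adjusted p under 0.05 in limma, beside 31.9% and 33.9% of all 13736 genes tested (65.7% in all), and the largest adjusted p among the 26 was 0.00117. In sgHcar1 cells 20 fell and 4 rose, beside 35.4% and 36.8% of all genes (72.2% in all), with 0.00796 as the largest adjusted p among the 24. Falls of at least 2-fold on the log2(FPKM + 1) scale numbered 10 in sgControl cells and 12 in sgHcar1 cells, beside 2.95% and 6.16% of all genes. The 12 include Adm, which passed the filter only through sgHcar1 cells in PBS and so had to fall there. Rises of that size numbered 1 (Ndrg1) in sgControl and 1 (Arnt) in sgHcar1 cells, beside 4.26% and 8.83% of all genes. The median change of the 29 genes was -0.57 in sgControl and -0.78 in sgHcar1 cells, where the median of all genes was 0.00 in both. Libraries in PBS and lactate did not overlap for 28 of the 29 genes in sgControl cells, beside 70.2% of all genes, and for 26 in sgHcar1 cells, beside 73.6%. The changes below are log2 differences of FPKM + 1 ± standard error, a scale that understates changes of genes at low levels, and folds are ratios of mean FPKM. In this bulk RNA, fewer expressing cells and less RNA per cell cannot be told apart.

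**Figure D1:**
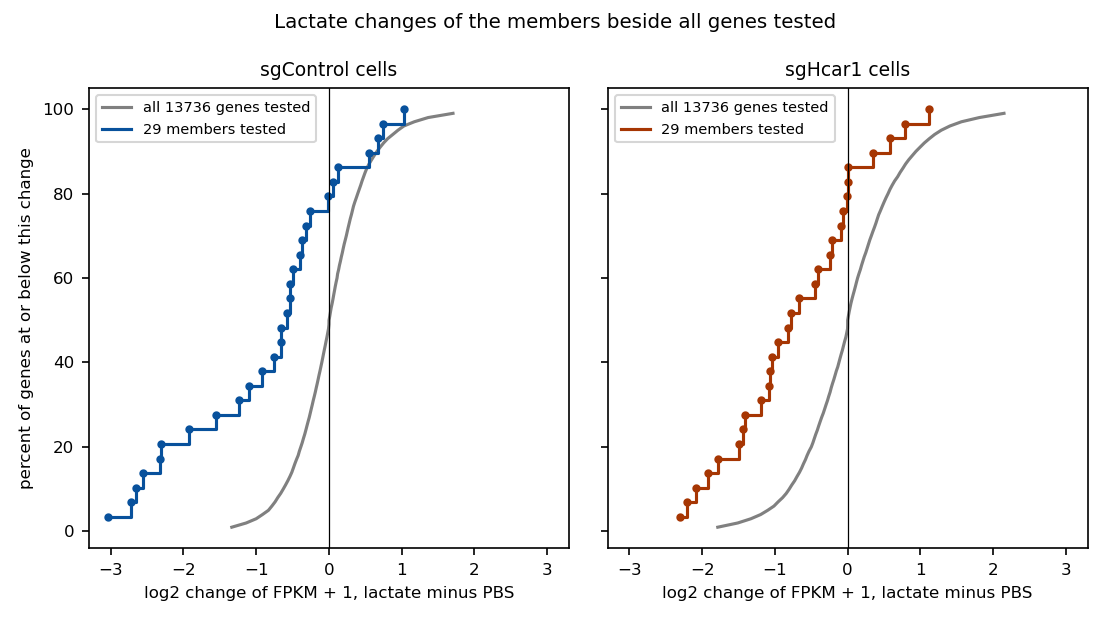
Cumulative share (y axis, percent) of genes at or below a given log2 change with lactate (x axis) for the 29 members tested (coloured steps and points) and all 13736 genes tested (grey), in sgControl cells (left) and sgHcar1 cells (right). The members lie to the left of all genes, with medians of -0.57 and -0.78 where the grey lines cross 50% near 0.

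Among the factor's own subunits, the alpha subunit gene Hif1a and the partner gene Arnt both rose with lactate, and both did so under either guide. Hif1a was at 22.8, 24.6 and 23.7 FPKM in the sgControl libraries in PBS and 40.3, 41.1 and 40.1 FPKM in lactate, a change of 0.75 ± 0.03 (1.71-fold; limma adjusted p = 3.42e-09). In sgHcar1 cells it was at 26.3, 26.3 and 26.5 FPKM under PBS and 39.9, 38.8 and 41 FPKM under lactate, a change of 0.58 ± 0.03 (1.51-fold). All lactate libraries lay above all PBS libraries, and the levels reached in lactate overlapped between the guides. Arnt stood at 10.3, 10.4 and 10.3 FPKM in the sgControl libraries in PBS and 17.5, 16.8 and 16.8 FPKM in lactate (0.67 ± 0.03). Its levels were 10.3, 9.71 and 10.1 FPKM in the sgHcar1 libraries in PBS and 22.9, 22.8 and 23.3 FPKM in lactate (1.12 ± 0.03), so the rise was 1.65-fold in sgControl and 2.29-fold in sgHcar1 cells with no overlap in either. The other alpha subunits were hardly seen: Epas1 was listed at 0 in 11 of 12 libraries and at 0.0121 FPKM in 1 sgHcar1 library in PBS, and Hif3a at 0 in 11 and at 0.00895 FPKM in 1 sgControl library in lactate. An exact two-sided permutation test of 6 against 6 libraries gave p = 1 for each, by treatment and by guide. With a single library above 0, every split of the libraries gives the same absolute difference. That outcome was fixed in advance, so the test cannot decide whether either gene differed.

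**Figure D2:**
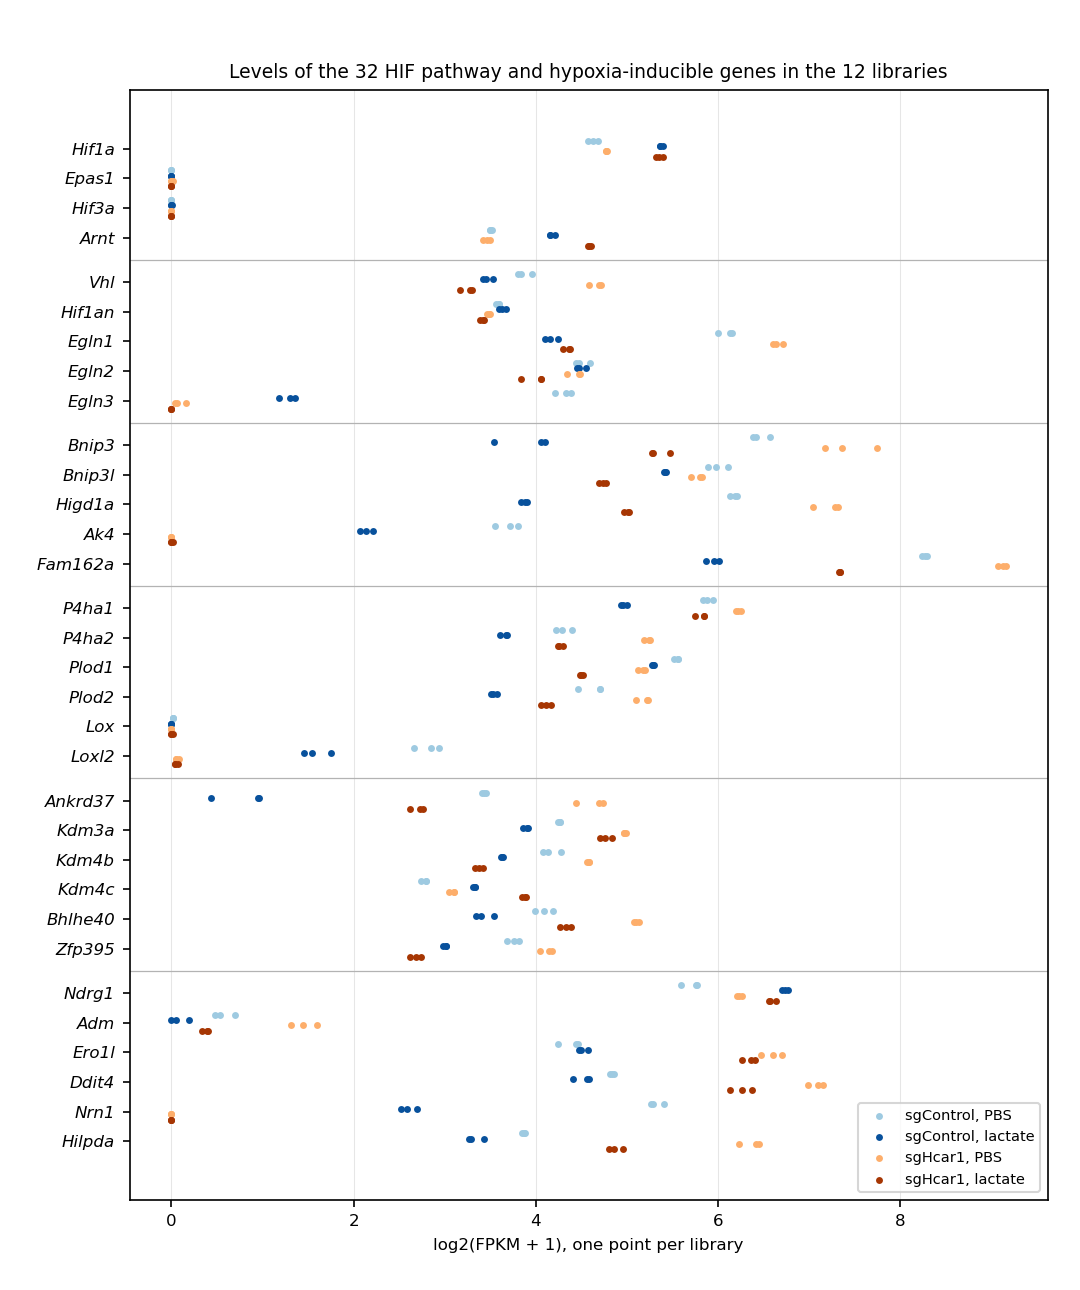
Level of each of the 32 genes (rows, grouped by role) in each of the 12 libraries, as log2(FPKM + 1) on the x axis, 1 point per library and 1 colour per group. Points of a group lie close together; lactate points sit left of PBS points for most genes and right of them for Hif1a, Arnt, Kdm4c and Ndrg1, and Egln3, Nrn1, Ak4 and Loxl2 lie at or near 0 in sgHcar1 cells.

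The oxygen sensors split: 2 of the 3 prolyl hydroxylase genes and Vhl fell in sgControl cells, while Egln2 and Hif1an did not pass the threshold. Egln3, whose enzyme is strongly hypoxia-inducible in many cells, had the lowest log2(FPKM + 1) change of all 13736 genes tested in sgControl cells. With a pseudocount of 0.1 Ankrd37 was slightly lower (-3.65 against -3.63). Egln3 was at 19.97, 19.2 and 17.5 FPKM in the sgControl libraries in PBS. In lactate it was at 1.57, 1.47 and 1.26 FPKM there, a fall of 13.2-fold (-3.03 ± 0.07). In sgHcar1 cells Egln3 was already near 0 in PBS, at 0.121, 0.0245 and 0.0454 FPKM, and was listed at 0 in all 3 lactate libraries (-0.09 ± 0.07, adjusted p = 0.271). With a pseudocount of 0.1 that last change was -0.67 with an adjusted p of 0.0091, at levels of at most 0.121 FPKM. Egln1, the main hydroxylase in oxygenated cells, was at 70.4, 69 and 63 FPKM in the sgControl libraries in PBS and 16.2, 16.9 and 17.9 FPKM in lactate, a fall of 3.97-fold (-1.93 ± 0.05). Its levels were 98.1, 104 and 96.4 FPKM in the sgHcar1 libraries in PBS and 18.7, 19.6 and 19.7 FPKM in lactate, a fall of 5.15-fold (-2.31 ± 0.05). Every lactate library of Egln1 lay far below every PBS library, and the change ranked 29 from the lowest of all genes in sgControl and 39 in sgHcar1 cells. Vhl, the substrate receptor of the ubiquitin ligase, was at 13.2, 14.6 and 12.9 FPKM in the sgControl libraries in PBS and 9.92, 9.7 and 10.6 FPKM in lactate (-0.40 ± 0.06). In sgHcar1 cells it was at 25.3, 24.9 and 23 FPKM under PBS and 8.73, 8.01 and 8.87 FPKM under lactate (-1.41 ± 0.06), a larger step from a higher start. In GRCm38.p6 the genes lie at chr12:54178981-54203874 (Egln3), chr8:124908587-124949254 (Egln1) and chr6:113623994-113631634 (Vhl). Egln2, a hydroxylase not known for hypoxic induction, was at 20.7, 21.2 and 23.2 FPKM in the sgControl libraries in PBS and 21.2, 20.8 and 22.4 FPKM in lactate (-0.01 ± 0.07, adjusted p = 0.892), where the groups overlapped. It was at 19.3, 21.2 and 21.4 FPKM in the sgHcar1 libraries in PBS and 15.6, 13.3 and 15.7 FPKM in lactate, a fall of 1.38-fold (-0.45 ± 0.07) without overlap. Hif1an was nearly level, at 10.8, 11.1 and 11.1 FPKM in the sgControl libraries in PBS and 11.1, 11.8 and 11.4 FPKM in lactate (0.05 ± 0.03, adjusted p = 0.157) and at 10.2, 10.3 and 10.05 FPKM in the sgHcar1 libraries in PBS and 9.74, 9.47 and 9.78 FPKM in lactate (-0.07 ± 0.03, adjusted p = 0.0697). The Hif1an calls turned on the scaling: with each library rescaled to the same sum it passed the threshold at 0.10 in sgControl and -0.25 in sgHcar1 cells, median-ratio scaling and quantile normalization passed it in sgHcar1 cells at -0.09 and -0.14, and quantile normalization turned it to -0.01 in sgControl cells.

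Genes of mitochondria and mitophagy had the lowest median change of any role under both guides, with falls in 5 of 5 tested in sgControl cells (median -2.30) and 4 of 5 in sgHcar1 cells (median -1.79). Fam162a, a mitochondrial protein linked to hypoxic cell death, was at 309, 314 and 300.2 FPKM in the sgControl libraries in PBS and 60.9, 57.6 and 63.4 FPKM in lactate, a fall of 5.07-fold (-2.32 ± 0.04). It was at 560.1, 570.4 and 537 FPKM in the sgHcar1 libraries in PBS and 160.05, 161 and 160.5 FPKM in lactate, a fall of 3.46-fold (-1.79 ± 0.04). PBS and lactate libraries of Fam162a were widely separated under both guides. Higd1a, a small inner membrane protein that acts on the respiratory chain, was at 72.8, 69 and 72 FPKM in the sgControl libraries in PBS and 13.3, 13.7 and 13.9 FPKM in lactate (-2.30 ± 0.06). It was at 158, 155 and 131 FPKM in the sgHcar1 libraries in PBS and 31.6, 30.3 and 31.2 FPKM in lactate (-2.21 ± 0.06). No lactate library of Higd1a came near a PBS library of its guide, and the ratios of means were 5.22-fold and 4.77-fold. Bnip3, a mitophagy receptor, was at 84.3, 82.8 and 93.7 FPKM in the sgControl libraries in PBS and 15.6, 16.1 and 10.6 FPKM in lactate (-2.56 ± 0.16). It was at 164, 214 and 143 FPKM in the sgHcar1 libraries in PBS and 43.4, 37.6 and 38 FPKM in lactate (-2.08 ± 0.16), with an SD in PBS of 36.2 FPKM and still no overlap with lactate. Its relative Bnip3l changed less, at 62.1, 68 and 58.4 FPKM in the sgControl libraries in PBS and 42.2, 41.9 and 41.5 FPKM in lactate (-0.57 ± 0.05). In sgHcar1 cells Bnip3l was at 55.6, 54.9 and 51.2 FPKM under PBS and 24.9, 26.2 and 25.7 FPKM under lactate (-1.04 ± 0.05). Ak4, a mitochondrial adenylate kinase, fell in sgControl cells from 12.2, 13 and 10.7 FPKM to 3.4, 3.64 and 3.2 FPKM (-1.55 ± 0.07). It was listed at 0 in 5 of the 6 sgHcar1 libraries and at 0.0139 FPKM in the other, so no change could be read there.

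Collagen and matrix enzymes fell together, 5 of 5 tested in sgControl cells (median -0.92) and 4 of 5 in sgHcar1 cells (median -0.67). The collagen prolyl hydroxylases P4ha1 and P4ha2 and the lysyl hydroxylases Plod1 and Plod2 modify collagen chains in the endoplasmic reticulum. Plod2 was at 25.1, 25.2 and 21.1 FPKM in the sgControl libraries in PBS and 10.9, 10.5 and 10.4 FPKM in lactate (-1.09 ± 0.06). It was at 36.4, 36.7 and 33.3 FPKM in the sgHcar1 libraries in PBS and 16.2, 15.6 and 17 FPKM in lactate (-1.08 ± 0.06), a fall of 2.25-fold and 2.18-fold under the respective guides with no overlap. P4ha1 fell 1.92-fold in sgControl cells, from 58.1 ± 2.27 FPKM to 30.2 ± 0.794 FPKM (SD, n = 3), and 1.33-fold in sgHcar1 cells, from 73.8 ± 1.6 FPKM to 55.3 ± 2.12 FPKM. For P4ha2 the order was the other way, with -0.65 ± 0.04 in sgControl cells and -0.96 ± 0.04 in sgHcar1 cells, where the level went from 36.4 ± 0.97 FPKM to 18.2 ± 0.43 FPKM. Plod1 moved little in sgControl cells, from 45.6 ± 0.735 FPKM to 38.1 ± 0.308 FPKM, and more in sgHcar1 cells, from 34.9 ± 0.902 FPKM to 21.6 ± 0.27 FPKM. Loxl2, a secreted lysyl oxidase that crosslinks collagen, was at 6.2, 6.67 and 5.35 FPKM in the sgControl libraries in PBS and 2.37, 1.91 and 1.75 FPKM in lactate (-1.23 ± 0.09), without overlap. In all 6 sgHcar1 libraries it was at 0.0265 to 0.0603 FPKM. Lox, its relative, was at 0.0157 FPKM or below in every library and at 0 in 8 of them (exact permutation p = 0.545 by treatment and by guide, 6 libraries each).

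Of the histone demethylases and regulators, 5 of 6 fell and Kdm4c rose under both guides. Ankrd37, an ankyrin-repeat protein and sensitive hypoxia marker, was at 9.98, 9.83 and 9.59 FPKM in the sgControl libraries in PBS and 0.935, 0.942 and 0.355 FPKM in lactate, a fall of 13.2-fold (-2.65 ± 0.13). It was at 25.6, 24.9 and 20.8 FPKM in the sgHcar1 libraries in PBS and 5.62, 5.16 and 5.76 FPKM in lactate, a fall of 4.31-fold (-1.92 ± 0.13). The lowest PBS library exceeded the highest lactate library under each guide, yet the sgHcar1 lactate libraries were above the sgControl lactate libraries. Kdm4b, which removes methyl groups from lysine 9 of histone H3, was at 18.5, 16.5 and 15.9 FPKM in the sgControl libraries in PBS and 11.5, 11.3 and 11.4 FPKM in lactate (-0.53 ± 0.05). Its sgHcar1 levels were 22.9, 22.6 and 23 FPKM under PBS and 9.06, 9.72 and 9.4 FPKM under lactate (-1.20 ± 0.05). Kdm4c, an enzyme of the same family, went the other way, from 5.86 ± 0.15 FPKM to 9.02 ± 0.1 FPKM in sgControl cells (0.55 ± 0.03) and from 7.48 ± 0.18 FPKM to 13.7 ± 0.204 FPKM in sgHcar1 cells (0.79 ± 0.03). Kdm3a fell modestly, by 0.37 ± 0.03 in sgControl and 0.21 ± 0.03 in sgHcar1 cells. Zfp395, a zinc finger protein, was at 13.1, 12.6 and 11.9 FPKM in the sgControl libraries in PBS and 7.09, 6.87 and 7.08 FPKM in lactate (-0.75 ± 0.05). It was at 17.1, 15.5 and 16.6 FPKM in the sgHcar1 libraries in PBS and 5.67, 5.45 and 5.13 FPKM in lactate (-1.44 ± 0.05). The sgHcar1 level was the higher one in PBS and the lower one in lactate. Bhlhe40, a repressor of the clock and of other promoters, was at 16, 17.2 and 14.9 FPKM in the sgControl libraries in PBS and 9.19, 10.6 and 9.53 FPKM in lactate (-0.66 ± 0.06). It was at 34, 33.2 and 32.9 FPKM in the sgHcar1 libraries in PBS and 19.8, 19.1 and 18.2 FPKM in lactate (-0.78 ± 0.06). For Zfp395 and Bhlhe40 no lactate library reached the level of a PBS library of the same guide.

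The stress, lipid droplet and secreted targets were the most mixed role, with 4 falls, 1 rise and 1 gene short of the threshold in sgControl cells and the same counts in sgHcar1 cells. Hilpda, which inhibits lipolysis at lipid droplets, was at 13.8, 13.6 and 13.4 FPKM in the sgControl libraries in PBS and 8.74, 8.66 and 9.77 FPKM in lactate (-0.54 ± 0.06). It was at 84.2, 86.2 and 74.2 FPKM in the sgHcar1 libraries in PBS and 29.96, 27.9 and 26.9 FPKM in lactate (-1.49 ± 0.06). Both falls were complete separations, and the sgHcar1 level in lactate still exceeded the sgControl level in PBS. Ddit4, an inhibitor of the mTOR complex that also answers to other stresses, was at 27.1, 27.6 and 28 FPKM in the sgControl libraries in PBS and 22.6, 20.2 and 22.9 FPKM in lactate (-0.32 ± 0.07). It was at 141, 135 and 126 FPKM in the sgHcar1 libraries in PBS and 75.9, 69.3 and 82.1 FPKM in lactate (-0.82 ± 0.07). Each sgHcar1 library, in lactate too, was above every sgControl library for Ddit4. Adm, the vasodilator adrenomedullin, was low, at 0.391, 0.628 and 0.452 FPKM in the sgControl libraries in PBS and 0.141, 0 and 0.0385 FPKM in lactate (-0.49 ± 0.09), and at 2.03, 1.49 and 1.72 FPKM in the sgHcar1 libraries in PBS and 0.31, 0.263 and 0.327 FPKM in lactate (-1.07 ± 0.09). It passed the filter through sgHcar1 cells in PBS, the group where it is highest. Nrn1, a membrane-anchored neurite growth protein, fell in sgControl cells from 38, 41.5 and 37.5 FPKM to 4.75, 5 and 5.47 FPKM, or 7.69-fold (-2.72 ± 0.05), and stood at 0 in each of the 6 sgHcar1 libraries. Ndrg1, a stress-responsive protein often used as a hypoxia marker, rose instead. It was at 53.1, 53.5 and 47.2 FPKM in the sgControl libraries in PBS and 103, 108 and 106 FPKM in lactate (1.03 ± 0.04). In sgHcar1 cells Ndrg1 was at 76, 74.3 and 72.7 FPKM under PBS and 98.3, 94.4 and 93.2 FPKM under lactate (0.35 ± 0.04). Its lactate libraries lay above the PBS libraries under both guides. Ero1l, the oxidase of disulfide formation in the endoplasmic reticulum, did not pass the threshold in sgControl cells, at 21.1, 20.6 and 18 FPKM in the sgControl libraries in PBS and 22.7, 21.2 and 21.5 FPKM in lactate (0.13 ± 0.07, adjusted p = 0.131), but did so at 0.18 with an adjusted p of 0.0448 when libraries were rescaled to the same sum. It fell slightly in sgHcar1 cells, from 103, 96.4 and 87.6 FPKM to 81.2, 75.8 and 84 FPKM (-0.25 ± 0.07).

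**Figure D3:**
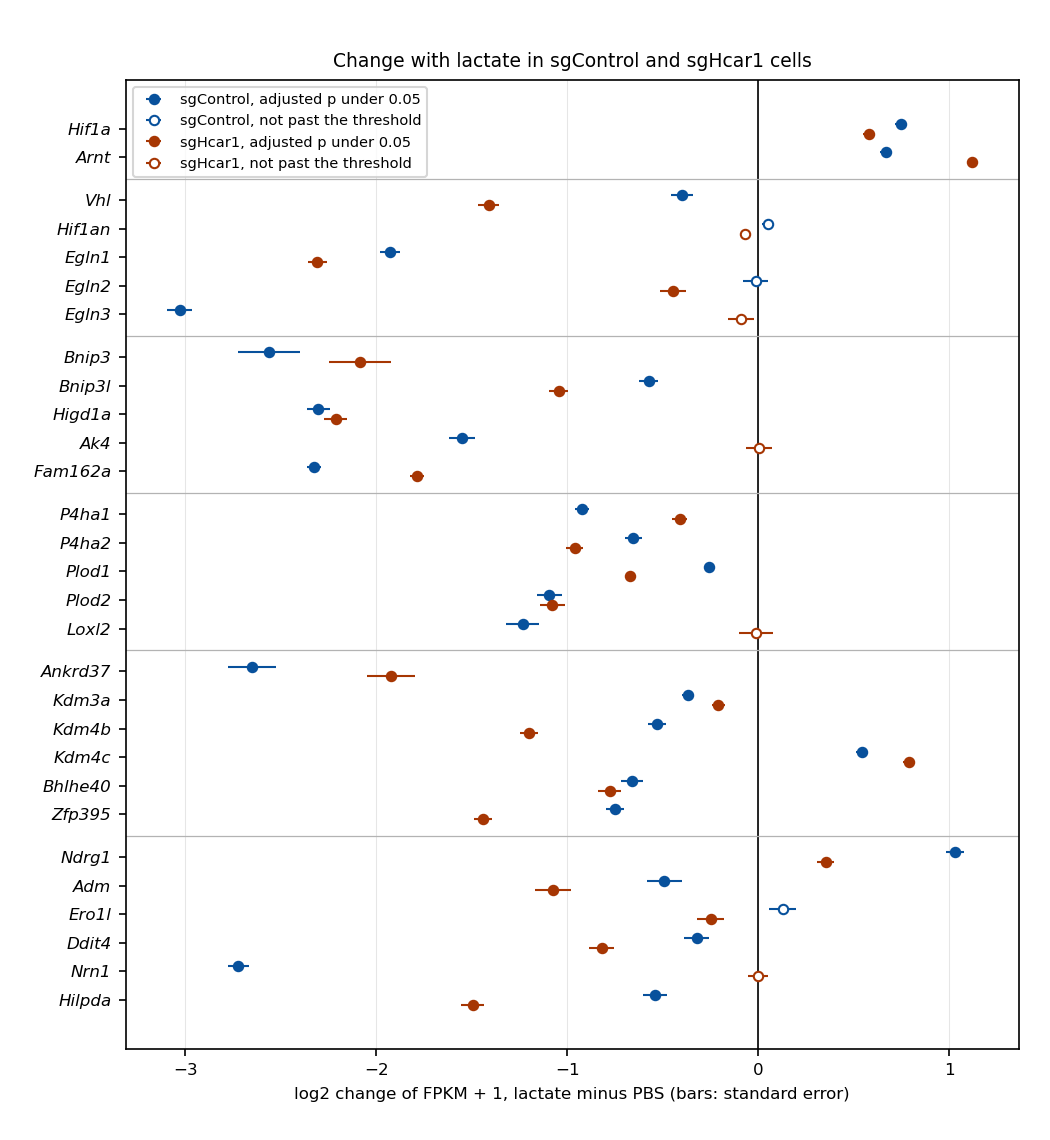
Log2 change of FPKM + 1 with lactate (x axis, bars are standard errors) for the 29 genes tested (rows, grouped by role) in sgControl (blue) and sgHcar1 cells (brown); filled points passed an adjusted p of 0.05. Most points lie left of 0 under both guides, Hif1a, Arnt, Kdm4c and Ndrg1 lie right of it under both, and Egln3, Nrn1, Ak4 and Loxl2 move in sgControl cells while their sgHcar1 points stay near 0.

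Direction was shared under both guides for 25 of the 29 genes tested, beside 9797 of all 13736 genes. The contrasts of the guides use separate PBS and lactate libraries, but they come from a single fit with a shared estimate of the spread. Of the 29 tested, 22 passed the threshold in both with the same direction, 18 down and 4 up, and 0 did so in opposite directions. Over all 13736 genes 6128 passed in both with the same direction, 2954 of them down. Opposite calls were not counted over all genes. The size of the change differed more often than its direction. The difference between the lactate changes, sgHcar1 minus sgControl, passed the threshold for 25 of the 29 genes, beside 59.1% of all genes, with 10 above 0 (30.4% of all genes) and 15 below (28.7%) and 0.0342 as the largest adjusted p. Egln3, Nrn1, Ak4 and Loxl2 passed the filter through their sgControl libraries alone and were near 0 in sgHcar1 cells, so their fall in sgControl cells alone sets their sign. Without them 6 of 25 lay above 0, 15 below and 4 did not pass. Of the 18 genes that fell under both guides, 10 fell further in sgHcar1 cells on the log2(FPKM + 1) scale, led by Vhl (-1.01 ± 0.08), Hilpda (-0.95 ± 0.09), Zfp395 (-0.69 ± 0.07) and Kdm4b (-0.67 ± 0.07). A smaller fall in sgHcar1 cells was found for 4 of them: Ankrd37 (0.73 ± 0.18), Fam162a (0.54 ± 0.05), P4ha1 (0.51 ± 0.05) and Kdm3a (0.16 ± 0.05). For Bnip3 (0.47 ± 0.23, adjusted p = 0.0971), Higd1a (0.09 ± 0.08, 0.392), Bhlhe40 (-0.12 ± 0.08, 0.239) and Plod2 (0.01 ± 0.09, 0.906) the difference did not pass the threshold. Without the second sgHcar1 library in PBS, the highest in Bnip3, that difference was 0.63 and passed (adjusted p = 0.0228). The difference of Hif1an (-0.12 ± 0.04, adjusted p = 0.0342) was lost on leaving out any 1 of 7 libraries, 2 of each group except sgHcar1 in lactate with 1. The differences above 2-fold were those of Egln3 (2.94 ± 0.10), Nrn1 (2.72 ± 0.08), Ak4 (1.56 ± 0.10) and Loxl2 (1.22 ± 0.12), genes at no more than 0.121 FPKM in any sgHcar1 library, and that of Vhl in the other direction, or 4 above 0 and 1 below beside 4.19% and 3.59% of all genes. Ndrg1 rose less in sgHcar1 cells (-0.68 ± 0.06), as did Hif1a (-0.17 ± 0.04), whereas Arnt (0.45 ± 0.04) and Kdm4c (0.24 ± 0.04) rose more. The 10 include Adm, at levels of at most 2.03 FPKM, whose fall by ratio of means was the smaller one in sgHcar1 cells (5.81-fold against 8.2-fold) and whose difference was lost with a pseudocount of 0.1 (-0.24, adjusted p = 0.657). Rescaling each library to the same sum took the median of all genes from near 0 to 0.04 for lactate in sgControl cells. That median became -0.12 for lactate in sgHcar1 cells and -0.20 for the difference. For sgHcar1 against sgControl it became -0.16 in PBS and -0.37 in lactate. The share of called genes that were higher then went from 50.9% to 40.01% for lactate in sgHcar1 cells and from 51.4% to 30.1% for the difference. Under that scaling the members counted 4 up and 21 down with lactate in sgHcar1 cells, and 8 above and 16 below for the difference, where Kdm3a turned to -0.06 and Kdm4c dropped to 0.02, neither past the threshold, and Bhlhe40 passed it at -0.33.

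Before any lactate the guides already differed in most of these genes. In PBS 20 of the 29 were higher in sgHcar1 than in sgControl cells and 7 lower, beside 38.2% and 38.4% of all genes (76.7% in all), with libraries that did not overlap for 27 of them (79.2% of all genes). At least 2-fold higher were 6 genes and at least 2-fold lower 4, beside 8.68% and 11.5% of all genes. Those 4 were Nrn1, Egln3, Ak4 and Loxl2, which passed the filter only through sgControl cells, the guide where they are high, and so had to differ. Of the other 25 genes 20 were higher and 3 lower. The 20 include Adm, which passed the filter only through sgHcar1 cells in PBS and so had to be higher there. The median difference was 0.53, where that of all genes was 0.01. Hilpda (5.99-fold, 2.50 ± 0.06), Ddit4 (4.87-fold, 2.24 ± 0.07) and Ero1l (4.81-fold, 2.21 ± 0.07) stood furthest above sgControl cells. Adm (3.55-fold), Ankrd37 (2.43-fold), Higd1a (2.08-fold), Bhlhe40 (2.08-fold) and Bnip3 (86.9 ± 5.93 FPKM against 174 ± 36.2 FPKM) followed. All 6 of the histone demethylases and regulators were higher, and 5 of the 6 stress, lipid droplet and secreted targets. Of the sensors Egln1 (0.56 ± 0.05) and Vhl (0.80 ± 0.06) were higher, Hif1an was slightly lower (-0.10 ± 0.03), and Egln2 did not pass the threshold (-0.07 ± 0.07). Hif1a differed little (0.15 ± 0.03) and Arnt did not pass the threshold (-0.04 ± 0.03). The 7 lower genes were Hif1an, Bnip3l (-0.22 ± 0.05), Plod1 (-0.38 ± 0.03) and the 4 that were near 0 in sgHcar1 cells: Nrn1 (-5.32 ± 0.05), Egln3 (-4.22 ± 0.07), Ak4 (-3.69 ± 0.07) and Loxl2 (-2.76 ± 0.09). These 4 had stood at 39 ± 2.19 FPKM, 18.9 ± 1.29 FPKM, 12 ± 1.18 FPKM and 6.07 ± 0.669 FPKM in sgControl cells in PBS (SD, n = 3), so that the contrast between guides was between clear and near-absent levels. The sgHcar1 and sgControl populations also differ in the epithelial and fibroblast markers given above, whose members moved in both directions, and the guide and any other difference between the populations cannot be told apart. With libraries rescaled to the same sum, the higher share of called genes went from 49.9% to 38.6%, the members counted 19 higher and 9 lower, Hif1a turned to -0.02, and Arnt (-0.22) and Egln2 (-0.25) were called lower.

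In lactate 16 genes were higher in sgHcar1 cells and 12 lower, beside 41.3% and 40.9% of all genes (82.2% in all), with no overlap for 28 (82.3% of all genes) and a median of 0.297. At least 2-fold higher were 7 and at least 2-fold lower 4, beside 12.8% and 14.5%, the 4 being Nrn1, Ak4, Loxl2 and Egln3 again. These 4 are among the 12 lower genes and passed the filter only through sgControl cells, so their direction was fixed by the filter. The 16 include Adm, which passed the filter only through sgHcar1 cells in PBS and was at most 0.327 FPKM in lactate. Ankrd37 (7.41-fold, 1.92 ± 0.13), Ero1l (3.68-fold, 1.83 ± 0.07), Ddit4 (3.46-fold, 1.74 ± 0.07), Hilpda (3.12-fold, 1.54 ± 0.06), Bnip3 (2.81-fold, 1.45 ± 0.16) and Fam162a (2.65-fold, 1.39 ± 0.04) stood out among the higher ones. Of the sensors 4 of 5 were lower, with Egln2 at -0.50 ± 0.07, Hif1an at -0.22 ± 0.03, Vhl at -0.21 ± 0.06 and Egln3 at -1.28 ± 0.07, and Egln1 was higher by 0.18 ± 0.05. Egln3 is counted here although the filter fixed its direction. Bnip3l (-0.69 ± 0.05) and Plod1 (-0.79 ± 0.03) were lower as in PBS, and Hif1a did not pass the threshold (-0.02 ± 0.03). Rescaling to the same sum took the higher share of called genes from 50.3% to 31.7% and the members to 14 higher and 14 lower. Egln1 then turned to -0.22 (adjusted p = 0.0012), Hif1a was called lower at -0.43, and Arnt went from 0.41 to 0.02. Quantile normalization also called Hif1a lower, at -0.21.

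**Figure D4:**
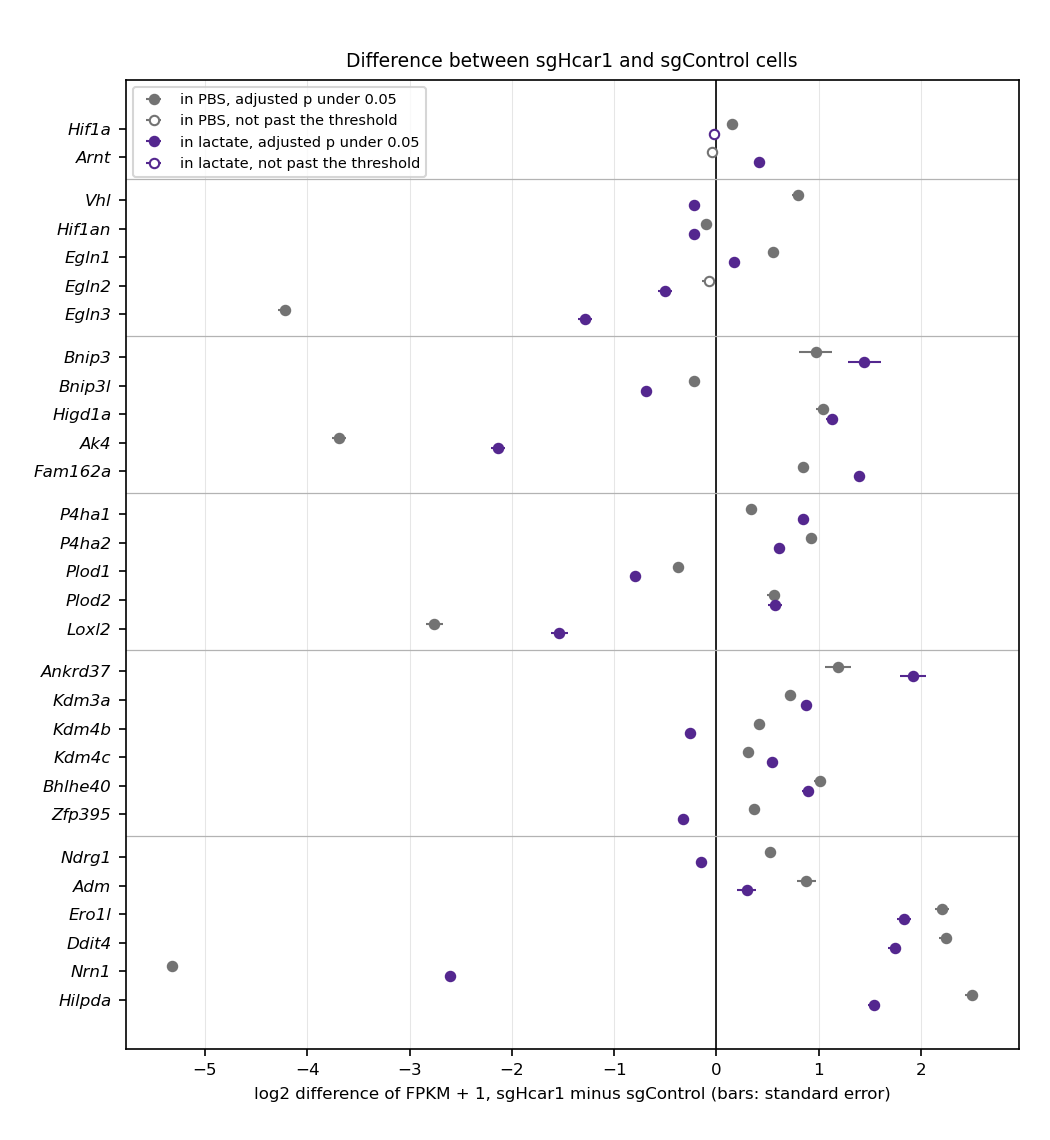
Log2 difference of FPKM + 1 between sgHcar1 and sgControl cells (x axis, bars are standard errors) for the 29 genes tested, in PBS (grey) and in lactate (purple); filled points passed an adjusted p of 0.05. Most genes lie right of 0 in PBS, led by Hilpda, Ddit4 and Ero1l above 2, and Nrn1, Egln3, Ak4 and Loxl2 lie far left.

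Lists of other genes of the pathway, taken by function, gave a setting for the members. Of 30 further HIF targets in glycolysis, pH control, angiogenesis and related roles, 25 had an entry and 22 were tested. In sgControl cells 17 fell and 2 rose with lactate (median -0.67), and the same counts held in sgHcar1 cells (median -1.04). The 2 rises in sgControl cells include Pfkfb3, which passed the filter only through those cells in lactate and so had to rise. Over all genes tested, the base for each list here, 31.9% fell and 33.9% rose in sgControl cells. In sgHcar1 cells the shares were 35.4% and 36.8%. Lactate dehydrogenase Ldha (-2.44 ± 0.04), the lactate exporter Slc16a3 (-2.39 ± 0.04) and the pyruvate dehydrogenase kinase Pdk1 (-2.08 ± 0.05) fell most in sgControl cells, and the single genes named from these lists all passed the threshold. In sgHcar1 cells Slc16a3 changed by -2.45 and Pdk1 by -2.0, while Ldha changed less, by -1.66 (difference 0.79 ± 0.06, adjusted p = 7.5e-07). The carbonic anhydrase Car9 fell from a mean of 3.69 to 1.27 FPKM in sgControl cells and from 188.6 to 65.1 FPKM in sgHcar1 cells. In PBS 16 of the 22 were higher in sgHcar1 than in sgControl cells and 4 lower, beside 38.2% and 38.4% of all genes. The 16 include Car12, at 0 in sgControl cells, which passed the filter only through sgHcar1 cells and so had to be higher there. Cofactors and stability factors of HIF showed no such lean: of 14 tested, 5 rose and 5 fell in sgControl cells, and 8 rose and 6 fell in sgHcar1 cells. Siah2, a ubiquitin ligase that targets the Egln hydroxylases, rose from 8.65 to 31.1 FPKM in sgControl cells (1.74 ± 0.04) and from 19.1 to 56.2 FPKM in sgHcar1 cells (1.51 ± 0.04).

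Close relatives of the members were mixed as a list, with 12 up and 9 down of 24 tested in sgControl cells (median 0.06). In sgHcar1 cells 11 rose and 5 fell (median 0.13). None of the histone demethylases tested in this list fell past the threshold under either guide, and the falls were in other families. The 9 include P4ha3 and Ndrg2, which passed the filter only through sgControl cells in PBS and so had to fall there. Over all genes 33.9% rose and 31.9% fell in sgControl cells, and 36.8% and 35.4% in sgHcar1 cells. Ero1lb, the paralogue of Ero1l, rose by 1.77 in sgControl and 2.76 in sgHcar1 cells, and Plin2, a lipid droplet coat protein, by 1.42 and 1.82. Kdm4a, a relative of Kdm4b and Kdm4c, rose by 1.04 and 0.67. Targets of ATF4 and CHOP, factors of the integrated stress response that also act on Ddit4 and Ero1l, moved opposite to the HIF targets: 12 of 12 rose in sgControl cells (median 3.02) and 9 of 12 in sgHcar1 cells (median 0.99), where 2 fell. In PBS 10 of these 12 were higher in sgHcar1 than in sgControl cells, beside 38.2% of all genes. The part of that response in the levels of Ddit4 and Ero1l was not tested.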

How the data were processed

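RNA was sequenced from 12 libraries of MC38 cells. The authors deposited 1 table of FPKM values, 1 per gene and library, per the file headers; HISAT2 2.0.5, featureCounts 1.5.0-p3 and build GRCm38 are named per the submitters' processing notes, and further steps are not given in the sources used here. Columns were mapped to groups by their letters, those of sgHcar1 by elimination. Read depth is unknown, so no count test was run. The test was limma 3.58.1 (R 4.3.3) on log2(FPKM + 1) values (intensity trend, 4 group means over all 12 libraries, no replicate block) for genes reaching 1 FPKM in 3 or more libraries, with two-sided tests and Benjamini-Hochberg adjustment over 13736 genes in each of 5 contrasts at a threshold of 0.05. The 3 genes below the filter were tested by exact permutation of 6 against 6 libraries. The fit was tested on simulated data. The 32 members, the lists, and the rule for naming genes were chosen with earlier results of these data known: values in every library for subunits, sensors and genes with at least a 2-fold change in any contrast, means or counts for the others, and up to 4 examples per further list. Alternatives were a pseudocount of 0.1, no filter, a mean of at least 5 FPKM, rescaling to a sum of 1000000, median-ratio scaling, quantile normalization, no trend, a replicate block, the compared groups only, and leaving out each library. Promoters and gene locations came from RefSeq, GRCm38.p6, matched by symbol, with Ero1l matched through its RefSeq synonym. The gene identifiers of the FPKM values carry a strain prefix, and whether those gene models match the RefSeq ones was not checked. Figures used Python 3.11.15 and matplotlib 3.10.9.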

Additional observations from a re-analysis of the deposited data

Results flagged for a closer look

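The change with lactate differed between sgControl and sgHcar1 cells for 25 of the 29 genes tested, beside 59.1% of all genes. This is by the test of the difference itself (limma, adjusted over all genes). The values are log2 differences, sgHcar1 minus sgControl. A value above 0 was found for Egln3 (2.94), Nrn1 (2.72), Ak4 (1.56), Loxl2 (1.22), Ankrd37 (0.73), Fam162a (0.54), P4ha1 (0.51), Arnt (0.45), Kdm4c (0.24) and Kdm3a (0.16). In Arnt and Kdm4c this was a larger rise in sgHcar1 cells, and in the others a smaller fall or no change past the threshold. Egln3, Nrn1, Ak4 and Loxl2 passed the filter only through sgControl cells and were near 0 in sgHcar1 cells. Their fall in sgControl cells alone sets their sign. A value below 0 was found for Vhl (-1.01), Hilpda (-0.95), Zfp395 (-0.69), Ndrg1 (-0.68), Kdm4b (-0.67), Adm (-0.58), Ddit4 (-0.50), Bnip3l (-0.47), Egln2 (-0.43), Plod1 (-0.41), Egln1 (-0.38), Ero1l (-0.38), P4ha2 (-0.31), Hif1a (-0.17) and Hif1an (-0.12). In Hif1a and Ndrg1 this was a smaller rise in sgHcar1 cells, in Hif1an 2 changes that each missed the threshold, in Egln2 and Ero1l a fall in sgHcar1 cells alone past the threshold, and in 9 others a larger fall. In Adm it was a larger fall on the log2(FPKM + 1) scale only, since the ratio of mean FPKM was 8.2-fold in sgControl and 5.81-fold in sgHcar1 cells. Groups of 3 libraries are too small for the check on single outlying samples.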

How the results depend on the processing

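No count of members past the threshold moved by more than 1.5 times under any alternative; leaving out 1 library in turn gave 22 falls in sgControl cells throughout, 19 to 20 in sgHcar1 cells, and 10 to 11 above and 13 to 15 below for the difference. FPKM values are relative to a library total that the sources used here do not define, which limits these results, as do the low levels of Adm, of Egln3 in sgHcar1 cells and of the 3 genes below the filter. A turn in sign occurred with rescaling to the same sum for 6 results: Egln2 with lactate in sgControl cells (0.032), the differences between the lactate changes of Kdm3a (-0.060), Higd1a (-0.11) and Plod2 (-0.19), Hif1a between guides in PBS (-0.025) and Egln1 between guides in lactate (-0.22, the only one of the 6 past the threshold). Quantile normalization turned Hif1an with lactate in sgControl cells (-0.0092) and Arnt between guides in PBS (0.018), and no longer called Hif1an between guides in PBS (-0.04). Leaving out 1 library gave a range that crosses 0 for Egln2 with lactate in sgControl cells (-0.046 to 0.036), Loxl2 with lactate in sgHcar1 cells (-0.022 to 0.0014) and the Plod2 difference (-0.029 to 0.095), none past the threshold in any fit, and lost the Hif1an difference in 7 of 12 fits, without sgControl replicate 1 or 3 in PBS or 2 or 3 in lactate or sgHcar1 replicate 1 or 2 in PBS or 2 in lactate (-0.12 to -0.10, adjusted p 0.0509 to 0.0817). The cause was not tested. Replicate numbers did not pair the libraries: same-numbered libraries of different groups had correlated deviations of -0.05 to 0.09 in 18 pairs, 0 of them over 0.1, and 0 libraries matched their own number best. A replicate block kept 144 of 145 gene results on their side of the threshold and took the Hif1an difference to an adjusted p of 0.0513 (-0.12).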
